A study of Mus musculus with 6 samples.

Results

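Hox genes encode homeodomain transcription factors that lie in 4 clusters, and 33 of them were compared here between juxtaglomerular (JG) cell samples and renal mesenchymal stromal cell (MSC) samples of the mouse. Members were all genes of the array's platform annotation named Hox, a cluster letter and a number, that had a probe set paired with that gene alone, out of 18193 genes measured in this way. The RefSeq gene table lists 39 Hox genes, and Hoxb8 and Hoxd4 were named only by probe sets shared with another gene. The rest were not analysed here. When a gene had several probe sets, the one with the highest mean intensity over all arrays stood for it.

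JG cells are the renin-secreting cells in the wall of the kidney's afferent arteriole. Here 3 JG samples were sorted from adult C57BL6 mice of genotype Ren1c YFP, in which a yellow fluorescent protein reports activity of the renin gene Ren1c. The 3 MSC samples came from adult mice of the same strain and genotype, were sorted by the surface antigen CD44 and were cultured to confluence in DMEM with serum. Both groups thus carry the reporter and the labels name no treatment for either. The sort differs between them along with the cell type, and culture may differ too. The labels repeat the MSC medium on the JG samples, so whether JG cells were cultured is not settled by them. Nor do they tell whether each sample stands for its own animal or culture, so p-values measure only the spread between these samples, which may be technical.

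Within a cluster the genes are numbered from 1 at the end that is switched on first and most anteriorly in the embryo to 13 at the end switched on last and most posteriorly. Genes with the same number in different clusters are paralogues that arose by duplication and often share functions. Their combined expression gives cells a memory of position along the body axis that fibroblasts and other stromal cells are known to retain in adults and in culture. In kidney development the Hox11 paralogues are needed for the ureteric bud to form and branch, and the Hox10 paralogues act in the stromal compartment.

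The JG samples differed more among themselves than the MSC samples did. Array medians lay between 27.3 and 36.5, and across all genes the log2 values correlated at 0.971 to 0.975 among MSC samples and at 0.797 to 0.882 among JG samples. Over the 33 Hox genes these correlations were 0.922 to 0.951 and 0.691 to 0.852, with JG samples 1 and 2 the least alike in both cases. These correlations run across genes, which are not independent replicates. No batch is given in the labels. Values below are probe set intensities of each sample, and differences are JG minus MSC ± SE of log2(intensity + 16), where a difference of 1 is a doubling. Means are given ± SD, with n = 3. The added 16 makes differences of dim genes too small, and a gene was called when its adjusted p in limma, Benjamini-Hochberg adjusted over all genes, was under 0.05.

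The JG samples held transcripts of other kidney cells. Ren1 was not analysed here. Of 8 measured smooth muscle and renin cell markers 3 were called higher in JG (Rgs5, Myh11 and Ace) and 3 higher in MSC (Acta2, Cnn1 and Tagln). All 10 proximal tubule markers were higher in JG, with summed intensities of 28754 to 36814 against 357 to 636 in MSC, and 6 of 10 collecting duct markers were, with 4742 to 7458 against 62.8 to 137. The sums were 8624 to 12046 against 47.4 to 52.5 for thick ascending limb (5 of 5 called), 3309 to 13904 against 52.8 to 76 for distal tubule (5 of 6), 1016 to 1401 against 102 to 142 for endothelium (5 of 8), and 1619 to 3989 against 106 to 472 for macrophages and leukocytes (4 of 8). The fibroblast sums overlapped, 13144 to 38094 against 21986 to 28812, with 3 of 10 markers higher in JG and 1 in MSC. The podocyte sums were 394 to 2290.5 against 2449 to 4552, with 1 of 5 markers higher in JG and 2 in MSC, and most of the MSC sum was Synpo (4101, 3689.9 and 2145). The lowest value on any array was 0.66, so no marker could read 0. Some read 1, among them Slc12a3 in MSC sample 1 and Foxi1 in JG sample 2. The part of these cells in the Hox differences was not tested. In such samples fewer cells of a type and less RNA per cell cannot be told apart.

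Of the 33 Hox genes, 5 were called higher in MSC (Hoxc10, Hoxc8, Hoxa11, Hoxa5 and Hoxb3) and 2 higher in JG (Hoxd8 and Hoxc13). These 7 genes are 21.2% of the members, where 15.4% of all genes were called. Of the 19 members brighter than the median of all genes in a group, 31.6% were called, against 24.9% of all such genes. In the MSC direction the background was 7.71% and in the JG direction 7.7%. The groups did not overlap for 13 members, or 39.4%, which is near the 38.9% of all genes. Of these, 9 were higher in MSC and 4 in JG, where 18.7% and 20.2% of all genes were. The median difference of the members was -0.16, where that of all genes was 0.07, and 19 members lay below 0 and 14 above. Without any 1 of the MSC samples the 5 genes became 2 (Hoxc10 and Hoxb3) and the 2 became 1 (Hoxd8). Without JG sample 1 the genes higher in JG became 5, with Hoxa4, Hoxa13 and Hoxb7 added. An unmoderated t statistic called 1 gene higher in MSC (Hoxb3), and array weights called 6 higher in JG. Over all genes the calls moved as well, from 2803 to 1235, 1170 and 1149 without MSC samples 1, 2 and 3. They numbered 5301 without JG sample 1, 1328 with the unmoderated t statistic and 6429 with array weights.

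**Figure D1:**
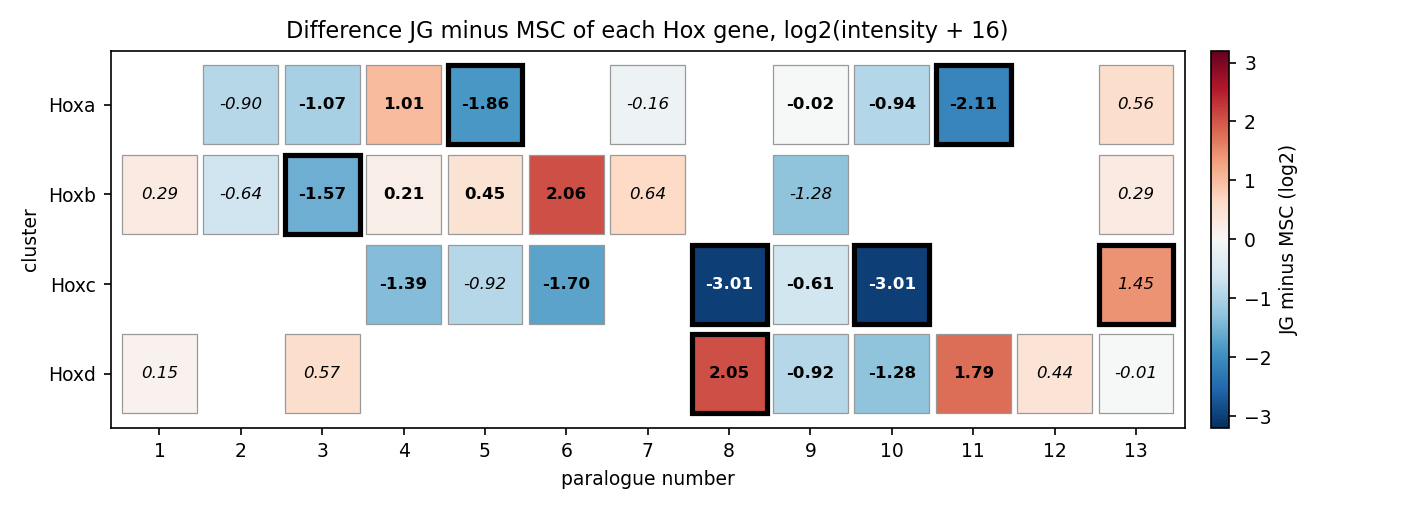
Difference JG minus MSC of log2(intensity + 16) for each of the 33 Hox genes (red higher in JG, blue higher in MSC), with clusters as rows and paralogue numbers as columns, and blank where no value is given. Thick frames mark the 7 called genes, and italic numbers mark genes whose mean lay under the median of all genes in both groups. Of the 7 genes in the Hoxc row 6 lie below 0, and Hoxc8 and Hoxd8 share a number but lie at -3.01 and 2.05.

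Promoters of called members are shown because transcription starts within them, and any part they had in the differences was not tested. RefSeq windows (GRCm38.p6) from 250 bases before to 50 after a start were at hand for 19 of the 33 genes, among them 3 of the 7 called ones. Hoxa11 and Hoxa5 were higher in MSC and Hoxd8 was higher in JG. Capitals mark CCAAT or its reverse complement.
Hoxa11, chr6:52245761-52246060, strand -: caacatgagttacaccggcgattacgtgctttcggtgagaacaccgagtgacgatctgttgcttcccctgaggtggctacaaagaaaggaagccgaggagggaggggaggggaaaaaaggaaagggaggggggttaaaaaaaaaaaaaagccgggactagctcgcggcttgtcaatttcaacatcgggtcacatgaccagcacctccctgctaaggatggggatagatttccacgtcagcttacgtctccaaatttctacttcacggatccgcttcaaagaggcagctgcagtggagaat
Hoxa5, chr6:52204538-52204837, strand -: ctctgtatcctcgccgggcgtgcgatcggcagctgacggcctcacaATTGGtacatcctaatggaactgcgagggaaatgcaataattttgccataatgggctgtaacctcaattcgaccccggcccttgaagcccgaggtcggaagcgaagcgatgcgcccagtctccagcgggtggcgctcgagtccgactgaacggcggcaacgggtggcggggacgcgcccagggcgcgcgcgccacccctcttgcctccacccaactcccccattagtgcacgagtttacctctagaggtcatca
Hoxd8, chr2:74704365-74704664, strand +: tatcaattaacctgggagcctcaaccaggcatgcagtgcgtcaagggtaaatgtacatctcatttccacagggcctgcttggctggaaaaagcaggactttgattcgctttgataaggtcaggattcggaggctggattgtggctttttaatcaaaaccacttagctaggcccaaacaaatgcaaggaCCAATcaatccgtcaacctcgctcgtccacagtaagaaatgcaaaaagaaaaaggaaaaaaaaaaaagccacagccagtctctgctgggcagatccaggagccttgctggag
The windows were searched on both strands for TGATNNAT, a site bound by Hox proteins together with Pbx, for TGACAG, the core bound by Meis and Pknox, for CCAAT and for TATAAA. No 2 matches overlapped in the windows shown, where CCAAT was found once each in Hoxa5 and Hoxd8 and the other motifs were not found. Over the 21 Hox windows, 14.3% held TGATNNAT, 9.52% held TGACAG, 57.1% held CCAAT and 9.52% held TATAAA. The shares among all 32851 windows of this length were 8.85%, 19.2%, 37.4% and 13.6%. The Hoxa5 window held 29 CpG pairs, the Hoxa11 window 15 and the Hoxd8 window 6, where the median was 15 over the Hox windows and 7 over all windows.

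Hoxc10, a posterior gene known from hindlimb and lumbar patterning, had one of the widest gaps among the members. Its intensities were 1578, 1671 and 1899 in MSC samples 1 to 3 and 309, 93.7 and 260.2 in JG samples 1 to 3. Every MSC sample lay above every JG sample by a wide margin, and the groups did not overlap. Means were 1716 ± 165 in MSC and 221 ± 113 in JG, a difference of -3.01 ± 0.44 (adjusted p = 0.00749 in limma). Hoxc8, which helps set thoracic vertebral and motor neuron identity, gave 945, 1227 and 727 in the MSC samples and 105, 42.8 and 222 in the JG samples. The difference was -3.01 ± 0.53 (adjusted p = 0.0145), with JG sample 2 the lowest for both genes. Hoxc10 kept its call whichever sample was left out (adjusted p up to 0.0437), while Hoxc8 lost it without any 1 of the MSC samples (up to 0.0708).

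Hoxd8 stood on the other side. It is a paralogue of Hoxc8, and its intensities were 700.2, 657 and 947 in MSC samples 1 to 3 and 2758, 3496 and 3397 in JG samples 1 to 3. All 3 JG samples lay above all MSC samples and close to one another. Means were 3217 ± 400.3 in JG and 768 ± 156 in MSC, a difference of 2.05 ± 0.25 (adjusted p = 0.00388), and the call held whichever sample was left out (up to 0.0289). Both measured genes of paralogue number 8 were therefore called, in opposite directions. A dimmer probe set of Hoxd8 did not show this pattern. It read 277, 307 and 517 in the MSC samples and 1549, 342 and 308 in the JG samples, and over all probe sets its difference was 0.62 ± 0.65 (adjusted p = 0.574).

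**Figure D2:**
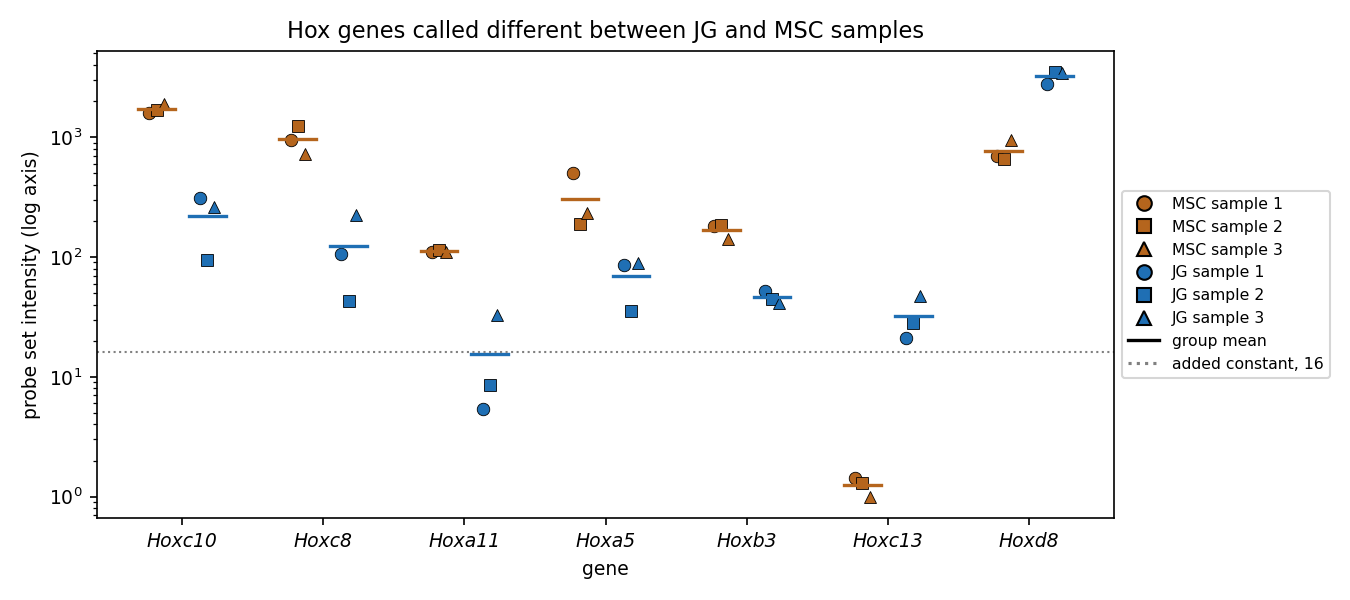
Probe set intensity on a log axis of the 7 called Hox genes in each of the 3 MSC (brown) and 3 JG (blue) samples, with lines at the arithmetic group means and a dotted line at the constant of 16 added before log2. No gene shows overlap between its groups, and Hoxc13 is the only one of the 7 whose MSC samples all lie under the dotted line.

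Hoxa11, one of the Hox11 genes required for the metanephric kidney, was even across the MSC samples. Its intensities were 109, 115 and 109.6 in MSC samples 1 to 3 and 5.42, 8.52 and 32.9 in JG samples 1 to 3. JG samples 1 and 2 lay under the added 16 and JG sample 3 was the highest of the group. The difference was -2.11 ± 0.36 (adjusted p = 0.0124), and the call was lost without any 1 of the MSC samples (up to 0.0624). Its paralogue Hoxd11 gave 46.2, 44.6 and 357 in the MSC samples and 809, 132 and 455 in the JG samples. Those groups overlapped, since MSC sample 3 was above JG sample 2, and Hoxd11 was not called (1.79 ± 0.92, adjusted p = 0.237). Whether the 2 paralogues differed from each other in their response was not tested.

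Hoxb3, a gene of the hindbrain and pharyngeal region, was higher in MSC with little spread in either group. Its brighter probe set read 179.7, 185 and 141 in the MSC samples and 51.6, 45 and 41.7 in the JG samples. The lowest MSC sample was well above the highest JG sample, and the difference of -1.57 ± 0.23 (adjusted p = 0.00735) was called whichever sample was left out (up to 0.0471). Its other probe set read 53.5, 16 and 35.8 in the MSC samples and 9.96, 28.8 and 157 in the JG samples and gave 0.27 ± 0.73 (adjusted p = 0.84), so with the mean of both probe sets the call was lost (adjusted p = 0.261). Hoxa5, which is needed for lung and cervicothoracic development, read 499, 188 and 232 in the MSC samples and 86.1, 35.4 and 88.2 in the JG samples and lay just inside the threshold (-1.86 ± 0.46, adjusted p = 0.0439). It kept its call only without JG sample 1 and lost it without any 1 of the other samples (up to 0.122). A second Hoxa5 probe set was also higher in every MSC sample, at 265, 216 and 170.5 in the MSC samples and 96, 81.9 and 145 in the JG samples, and was not called (-0.93 ± 0.29, adjusted p = 0.0916). That probe set is the brighter one by mean log2 value, so the choice between them decides the call. Quantile normalization, added constants of 1 or 64, a trended robust prior and an unmoderated t statistic also ended it (adjusted p up to 0.131 over all alternatives).

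Hoxc13, a gene known for hair and nail formation, was the dimmest called member. Its intensities were 1.44, 1.31 and 1 in MSC samples 1 to 3 and 21.2, 28.2 and 47.5 in JG samples 1 to 3, without overlap. The difference of 1.45 ± 0.27 (adjusted p = 0.0178) depends on the added 16, since all MSC samples lay under it, and was 3.82 with an added 1 (adjusted p = 0.00187). The call was lost without any 1 of the MSC samples (up to 0.0824).

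By cluster, the median difference lay below 0 for Hoxc and Hoxa and above 0 for Hoxb and Hoxd. The median difference was -1.39 over 7 Hoxc genes, of which 6 lay below 0, and -0.90 over 9 Hoxa genes, of which 7 did. It was 0.29 over 9 Hoxb genes and 0.29 over 8 Hoxd genes, with 3 below 0 in each. Both of these medians rest on dim genes. The Hoxb value is that of Hoxb1, which lay under 16 in every sample. The Hoxd value lies between Hoxd1 at 0.15, also under 16 in every sample, and Hoxd12 at 0.44. Among genes brighter than the median of all genes in a group, 2 of 4 Hoxd and 1 of 4 Hoxb genes lay below 0. In Hoxc 5 of 5 such genes did, and in Hoxa 5 of 6. Of all genes of this brightness 5731 of 9966 lay below 0, with a median of -0.28. Called genes numbered 3 of 7 in Hoxc, 2 of 9 in Hoxa, 1 of 9 in Hoxb and 1 of 8 in Hoxd, against the 15.4% of all genes. Hoxc6 read 922, 983 and 636 in the MSC samples and 112, 157 and 778 in the JG samples. JG sample 3 lay inside the MSC range while the other JG samples were far below it, and Hoxc6 was not called (-1.70 ± 0.69, adjusted p = 0.15), but was without JG sample 3 (adjusted p = 0.0124). This probe set carries an x in its name, for possible matches to several transcripts. Without such probe sets the Hoxc6 difference was -0.30 (adjusted p = 0.546), and with the mean of its 3 probe sets it was -0.86 (adjusted p = 0.0786). Hoxc9 read 801, 817 and 987 in the MSC samples and 499, 469.7 and 748 in the JG samples, without overlap, for a difference of -0.61 ± 0.27 (adjusted p = 0.178). Hoxc4 varied widely among the JG samples, with 394, 185 and 278 in the MSC samples and 453, 5.28 and 119 in the JG samples (-1.39 ± 1.07, adjusted p = 0.418).

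In the Hoxa cluster, neither Hoxa10 nor its neighbour Hoxa9 was called. Hoxa10, a gene of the uterus and lumbar region, read 922, 654 and 699.6 in the MSC samples and 517, 373 and 292 in the JG samples. All MSC samples were above all JG samples, and the difference of -0.94 ± 0.30 did not pass (adjusted p = 0.084), though it did without JG sample 1 (adjusted p = 0.0287). Hoxa9, best known from blood-forming cells, read 835, 539 and 659 in the MSC samples and 509, 645 and 860.4 in the JG samples, with means of 678 ± 149 and 672 ± 177 (-0.02 ± 0.30, adjusted p = 0.967). The sign of that difference turned to above 0 with quantile normalization. Each gene has a dimmer probe set, at -0.17 ± 0.31 for Hoxa10 and -0.61 ± 0.49 for Hoxa9 (adjusted p = 0.765 and 0.45), and with the mean of probe sets the differences were -0.55 and -0.32. Hoxa3, a gene of thymus and parathyroid formation, was read by 4 probe sets. The brightest gave 1861, 1233 and 1113 in the MSC samples and 169, 1051 and 1436 in the JG samples, where JG sample 1 alone was low (-1.07 ± 0.78, adjusted p = 0.393). The next brightest gave 601, 398 and 452 in the MSC samples and 55.6, 49.4 and 256 in the JG samples, without overlap and not called (-2.19 ± 0.58, adjusted p = 0.0587). The remaining probe sets of Hoxa3 lay on both sides of 0, at -0.12 ± 0.23 and 0.67 ± 0.93 (adjusted p = 0.775 and 0.673). With the mean of its probe sets the Hoxa3 difference was -0.67 (adjusted p = 0.421).

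The probe sets of Hoxa4 disagreed in direction. The one with the higher mean read 46.7, 28.2 and 32.9 in the MSC samples and 38.2, 163 and 97.5 in the JG samples and was not called (1.01 ± 0.46, adjusted p = 0.19), though it was without JG sample 1 (adjusted p = 0.0218). The other read 60.2, 152 and 78 in the MSC samples and 6.86, 3.96 and 12 in the JG samples, and was called higher in MSC over all probe sets (-2.19 ± 0.35, adjusted p = 0.0134). It is of a kind that can match several transcripts, marked by x in its name, and the 2 probe sets give no single answer for Hoxa4. In all, 11 Hox genes had more than 1 probe set, and for 5 of them these lay on both sides of 0. Of 48 Hox probe sets 8 were called, 6 higher in MSC and 2 in JG, where 12.9% of all probe sets were.

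Hoxb5 and Hoxb6, neighbours in the middle of the Hoxb cluster, both had differences above 0 and were not called. Hoxb6 read 422, 104 and 248 in the MSC samples and 1071, 554 and 1604 in the JG samples. Every JG sample was above every MSC sample, and the difference of 2.06 ± 0.59 fell just short (adjusted p = 0.0646), but was called without JG sample 2 (adjusted p = 0.0482) and with median centring, quantile normalization or either filter on dim genes (adjusted p = 0.0381 to 0.0459). Hoxb5 read 389, 181 and 349 in the MSC samples and 224, 271 and 1073 in the JG samples, where JG sample 3 alone was high (0.45 ± 0.64, adjusted p = 0.663). Hoxb4, a regulator of blood stem cells, was also highest in JG sample 3, at 63.4, 249 and 774 against 194, 359 and 119 in MSC (0.21 ± 0.85, adjusted p = 0.889). Without JG sample 3 the differences of Hoxb4 and Hoxb5 turned to below 0. A probe set naming both Hoxb8 and Hoxb7 read 205, 678 and 270.5 in the MSC samples and 180.4, 1754 and 1579 in the JG samples, high in JG samples 2 and 3 only, and which of the 2 genes it reads cannot be told apart. The probe set of Hoxb7 alone was dim, at 6.9, 4.96 and 5.3 in the MSC samples and 4.43, 26.5 and 28.9 in the JG samples (0.64 ± 0.36, adjusted p = 0.265), and was called without JG sample 1 (adjusted p = 0.0212).

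A noncoding RNA of the same stretch, Hoxb5os, had a larger difference than any of the 33 Hox genes. In the RefSeq gene order it lies next to Hoxb6, and it read 25.6, 78.2 and 34.9 in MSC samples 1 to 3 and 1687, 605 and 1286 in JG samples 1 to 3. The lowest JG sample was far above the highest MSC sample. The difference was 4.25 ± 0.49 (adjusted p = 0.003), and it was called whichever sample was left out (up to 0.0218). Whether the probe sets tell this RNA from transcripts of the neighbouring Hoxb genes was not tested. The other measured RNAs of this kind were not called. Hoxd3os1 read 307, 78.4 and 188 in the MSC samples and 29.5, 392 and 57.3 in the JG samples (-0.73 ± 0.89, adjusted p = 0.612) and Hoxa11os read 6.21, 9.25 and 1.93 in the MSC samples and 11.7, 16.1 and 15.9 in the JG samples (0.50 ± 0.24, adjusted p = 0.208). Of 15 such RNAs listed, 3 were measured.

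Next to Hoxd8, the genes Hoxd9, Hoxd10 and Hoxd11 varied widely within both groups. Hoxd9 read 416, 504 and 1478 in MSC samples 1 to 3 and 1400.0, 82.8 and 336 in JG samples 1 to 3. Hoxd10 read 343, 224 and 1129.8 in the MSC samples and 359, 62.2 and 221 in the JG samples, and the Hoxd11 values stand beside those of Hoxa11. For all 3 genes MSC sample 3 was the highest of its group, JG sample 1 the highest of its own and JG sample 2 the lowest. Differences were -0.92 ± 1.00 for Hoxd9 (adjusted p = 0.567) and -1.28 ± 0.78 for Hoxd10 (adjusted p = 0.311). The summed fibroblast markers ran the same way among JG samples, at 38094, 13144 and 19595 in JG samples 1 to 3, and not among MSC samples, at 28812, 28434 and 21986. The distal tubule sums (13904, 3309 and 8802) and thick ascending limb sums (12046, 8624 and 10385) had this JG order too. The distal tubule sum was also highest in MSC sample 3, at 52.8, 70.7 and 76 in MSC samples 1 to 3. These are dim values, since 3 of the 6 markers lay under 16 in every MSC sample. The remaining marker lists did not have this JG order. JG sample 1 was lowest for collecting duct (4742, 6128 and 7458), podocyte, and macrophage and leukocyte markers. JG sample 3 was highest for proximal tubule and endothelium markers, and JG sample 2 for smooth muscle and renin cell markers. The part of these cell types in the spread of the Hoxd genes was not tested. Hoxd8 did not follow this order, since JG sample 1 was its lowest JG sample.

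**Figure D3:**
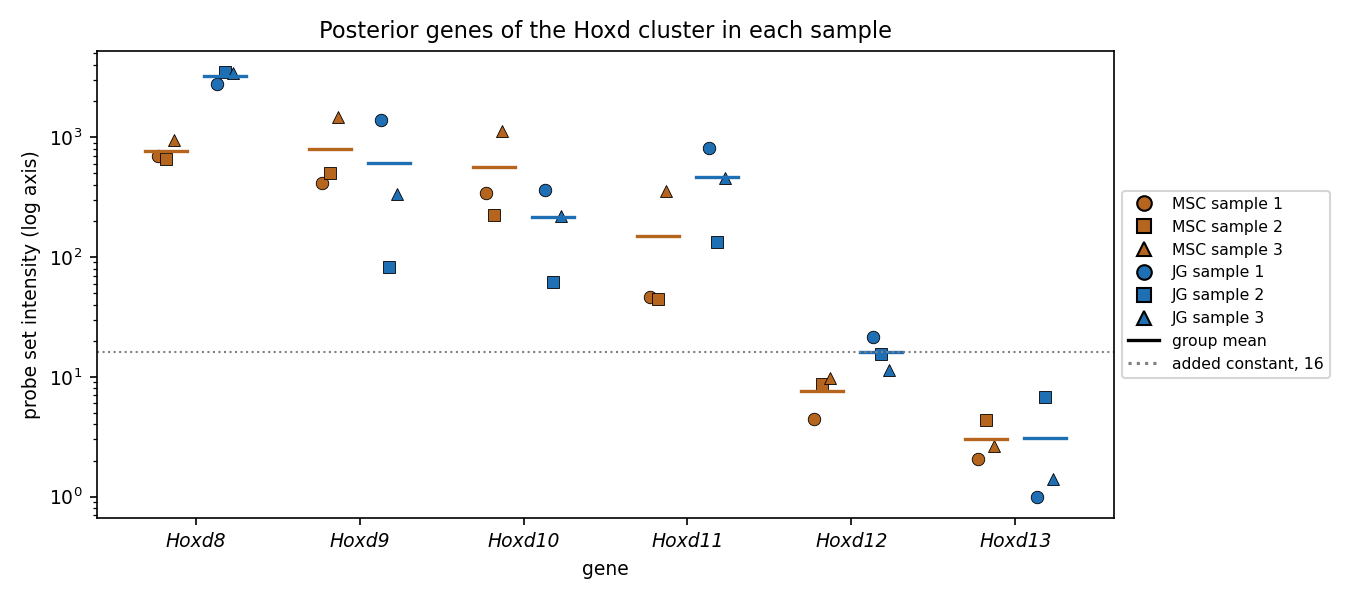
Probe set intensity on a log axis of Hoxd8 to Hoxd13 in each of the 3 MSC (brown) and 3 JG (blue) samples, with lines at the arithmetic group means and a dotted line at the added constant of 16. Hoxd8 separates the groups, Hoxd9, Hoxd10 and Hoxd11 overlap with MSC sample 3 (brown triangle) and JG sample 1 (blue circle) on top, and Hoxd13 lies under 16 in every sample.

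By paralogue number, the only sets of 3 or more members that lay on 1 side of 0 were numbers 9 and 10. The 3 members of number 10 (Hoxa10, Hoxc10 and Hoxd10) had differences of -0.94, -3.01 and -1.28, and Hoxc10 alone was called. The 4 of number 9 lay between -1.28 for Hoxb9 and -0.02 for Hoxa9, and none was called. Number 9 no longer lay on 1 side with quantile normalization or array weights, where Hoxa9 was 0.15 and 0.27, nor without MSC sample 1 or JG sample 1 (Hoxa9 at 0.14 and 0.16) or JG sample 2 (Hoxd9 at 0.02). Numbers 1 to 3 had a median of -0.64 over 7 members, numbers 4 to 8 one of 0.03 over 12, and numbers 9 to 13 one of -0.32 over 14. Calls numbered 1, 3 and 3 in these groups, or 14.3%, 25% and 21.4%, against 15.4% of all genes. The groups mix genes of unequal brightness, and differences between them were not tested.

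The remaining members were dim, with both group means under 84.1, the median over all genes. Among them Hoxb9 (82.6, 70.0 and 99.5 in the MSC samples and 13.9, 56.2 and 15.7 in the JG samples) did not overlap between groups and was not called (-1.28 ± 0.40, adjusted p = 0.0798), but was without JG sample 2 (adjusted p = 0.0105). Hoxa2, the branchial arch gene, read 64.4, 20.6 and 44.6 in the MSC samples and 8.09, 17 and 18.3 in the JG samples (-0.90 ± 0.36, adjusted p = 0.142). Hoxc5 read 139, 25.4 and 75.7 in the MSC samples and 8.52, 140.0 and 6.66 in the JG samples and its 3 probe sets lay on both sides of 0. Hoxb2 read 30.3, 75.1 and 15.8 in the MSC samples and 30.3, 4.81 and 20.5 in the JG samples, Hoxd3 25.6, 5.97 and 31.2 in the MSC samples and 28.7, 55.9 and 27.5 in the JG samples, and Hoxa7 30.6, 53.4 and 33.6 in the MSC samples and 39.4, 36.8 and 23.5 in the JG samples, with overlap in each. The most anterior genes Hoxb1 and Hoxd1 lay under 16 in every sample, at most 12.7 and 8.65. Of the posterior end, Hoxd13 did too, while Hoxd12 reached 21.6 in JG sample 1, Hoxb13 37.4 in JG sample 2 and Hoxa13, the distal limb and genital gene, 39.3 in JG sample 3. Hoxa13 was not called (0.56 ± 0.41, adjusted p = 0.403), but was without JG sample 1 (adjusted p = 0.0239). With no detection calls in the table, these are intensities and not statements of absence. A probe set naming Hoxd4 and Hoxd3 together read 17.1, 8.93 and 51.2 in the MSC samples and 1.02, 261 and 485 in the JG samples, high in JG samples 2 and 3 only. Another probe set naming both genes lay under 16 in every sample and was lower in every JG sample. It read 7.14, 6.51 and 11.3 in the MSC samples and 5.54, 1.61 and 4.75 in the JG samples.

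Hox proteins gain DNA specificity by binding with cofactors of the TALE homeodomain class, among them the Pbx, Meis and Pknox proteins. Of 11 measured genes listed for this class together with geminin, a replication protein that binds Hox proteins, 4 were called higher in MSC and 0 in JG (36.4% against 15.4% of all genes, and 24.9% of the genes brighter than the median, as 10 of the 11 are), and all 11 differences lay below 0, with a median of -1.29. Among all genes brighter than the median, 5731 of 9966 differences lay below 0, with a median of -0.28. Meis2 read 751, 1071 and 924 in the MSC samples and 81.3, 54.3 and 194 in the JG samples (-3.03 ± 0.44, adjusted p = 0.00707). Pknox2 read 368, 344 and 363 in the MSC samples and 53.1, 29.3 and 18.4 in the JG samples (-2.97 ± 0.31, adjusted p = 0.00201), and Pbx3 416, 219 and 261 in the MSC samples and 6.9, 11.2 and 62.3 in the JG samples (-3.06 ± 0.53, adjusted p = 0.0133). In each of these every MSC sample was above every JG sample. Meis3 was called as well (-1.14 ± 0.27, adjusted p = 0.04). Pbx2 read 624, 347 and 605 in the MSC samples and 219, 817 and 664 in the JG samples and was not called (-0.04 ± 0.53, adjusted p = 0.969). Meis2 and Pknox2 held their call with each sample left out in turn. Pbx3 lost it without MSC sample 1 or 3 (up to 0.0619) and Meis3 without JG sample 3 or any single MSC sample (up to 0.145). Meis3 also lost it under 8 of 13 other settings, among them quantile normalization, median centring and both filters on dim genes (up to 0.141).

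**Figure D4:**
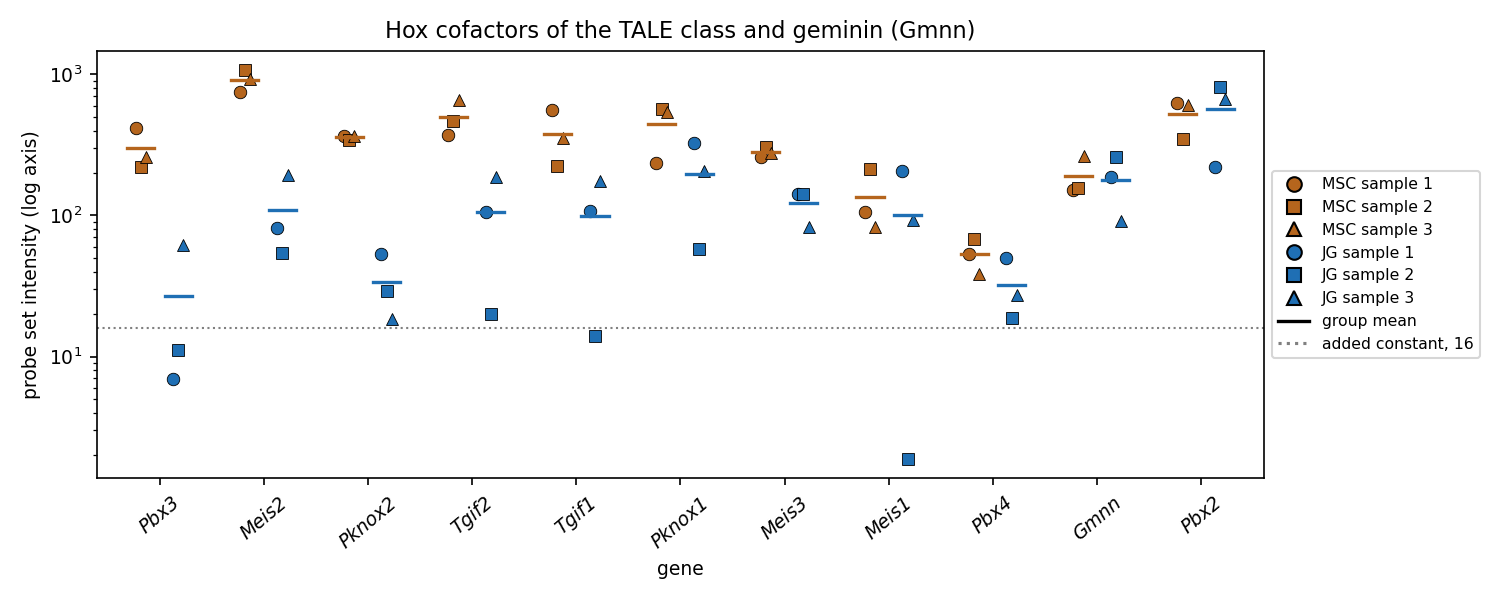
Probe set intensity on a log axis of 10 TALE class genes and geminin (Gmnn) in each of the 3 MSC (brown) and 3 JG (blue) samples, ordered by difference, with lines at the arithmetic group means and a dotted line at the added constant of 16. Pbx3, Meis2, Pknox2 and Meis3 were called higher in MSC, and Pbx2, at the right, overlaps between the groups.

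Polycomb proteins keep Hox genes silent through marks on histones, and Trithorax proteins keep them active. Of 29 measured Polycomb genes 5 were called higher in MSC and 3 in JG (27.6% against 15.4% of all genes), with a median of -0.07. Of the 29, 23 were brighter than the median of all genes, and 24.9% of all such genes were called. The methyltransferase genes that can replace each other in the complex went opposite ways. Ezh2, found mainly in dividing cells, read 131, 196 and 296 in the MSC samples and 45.6, 74.3 and 49.9 in the JG samples (-1.58 ± 0.35, adjusted p = 0.0304), and Ezh1, found mainly in resting cells, read 248, 223 and 365 in the MSC samples and 1339.9, 1362 and 2247 in the JG samples (2.49 ± 0.32, adjusted p = 0.00483). Eed, their common partner, was higher in MSC (-2.65, adjusted p = 0.0153), as were the ubiquitin ligase gene Rnf2 (-2.22, adjusted p = 0.0246), Phc2 (-2.37, adjusted p = 0.0355) and Kdm2b (-1.51, adjusted p = 0.0291). Pcgf5 (1.58, adjusted p = 0.00655) and Cbx7 (1.76, adjusted p = 0.0322) were higher in JG.

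Ezh1 and Pcgf5 held their call with each sample left out in turn, but not with the mean of their probe sets (adjusted p = 0.0628 and 0.0803). That setting also ended the calls of Cbx7, Kdm2b and Ash2l, a Trithorax gene (adjusted p = 0.0513, 0.0645 and 0.0798). It brought Eed to -1.16, Rnf2 to -0.84 and Psip1, listed with the Trithorax genes, to -1.26, all still called. Quantile normalization and a trended robust prior ended the call of Ezh2 (adjusted p up to 0.0909 over its alternatives). Ezh2 lost it without MSC sample 2 or 3 or JG sample 3 (up to 0.111), Eed, Rnf2 and Kdm2b without any 1 of the MSC samples (up to 0.124 for Kdm2b), Phc2 also without JG sample 2 and Cbx7 also without JG sample 2 or 3 (up to 0.132 and 0.13). Measured genes listed for Trithorax proteins and H3K27 demethylases, with associated genes such as Dot1l, numbered 16. All 16 were brighter than the median of all genes, and 24.9% of all such genes were called. Of the 16, 2 were called, both higher in MSC (12.5% against 15.4% of all genes). They were Psip1 (-2.26 ± 0.39, adjusted p = 0.0136), whose protein tethers the Trithorax methyltransferase Kmt2a to chromatin, and Ash2l (-1.52 ± 0.33, adjusted p = 0.0291), a subunit of the same complex. Both calls were lost without any 1 of the MSC samples, and that of Ash2l also without JG sample 3. Kmt2a itself read 287, 112 and 179 in the MSC samples and 92.6, 661 and 619 in the JG samples (0.87 ± 0.77, adjusted p = 0.479), low in JG sample 1 and high in JG samples 2 and 3.

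Retinoic acid switches on Hox genes in the embryo. Of 19 measured genes of its synthesis, sensing and breakdown and of the Cdx inputs, Aldh1a2, a retinoic acid synthase, alone was called (5.26% against 15.4%). It read 344, 337 and 134 in the MSC samples and 10.4, 90.6 and 5.73 in the JG samples (-2.76 ± 0.69, adjusted p = 0.0443), and lost its call without any 1 sample other than JG sample 2 (up to 0.152), with quantile normalization and with an added constant of 64. Rarb, a receptor gene that is itself induced by retinoic acid, read 70.8, 142 and 37.5 in the MSC samples and 11.3, 37.2 and 14.3 in the JG samples, without overlap and not called (-1.35 ± 0.47, adjusted p = 0.109). Aldh1a3, another retinoic acid synthase, went the other way without overlap and was not called (1.97 ± 0.67, adjusted p = 0.102). It read 30.8, 55.6 and 113 in the MSC samples and 725, 130 and 228 in the JG samples. Of the 19 genes, 8 did not overlap between groups (42.1% against 38.9% of all genes), 4 in each direction. The median difference was -0.05.

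Of 22 measured kidney and limb genes listed as partners or targets of Hox proteins, 6 were called higher in MSC and 1 in JG (31.8% against 15.4% of all genes), with a median of -0.28. Gdnf, the ureteric bud growth factor that Hox11 proteins act on, read 30.5, 97.9 and 71.3 in the MSC samples and 5.84, 4.7 and 11.8 in the JG samples (-1.73 ± 0.38, adjusted p = 0.0294). Six2, the nephron progenitor gene they also act on, was dim at 1.6, 6.31 and 3.15 in the MSC samples and 4.94, 21.5 and 12.7 in the JG samples (0.53 ± 0.29, adjusted p = 0.264). Wt1 (-3.88), the stromal factor gene Foxd1 (-3.44), the guidance receptor gene Epha7 (-2.83), Tbx15 (-2.52) and Tbx18 (-1.22) were also higher in MSC (adjusted p = 0.00075, 0.00323, 0.000732, 0.0291 and 0.0231). Wt1 also stands on the podocyte list, where Synpo was higher in MSC too (-2.35, adjusted p = 0.0393) and Podxl in JG (3.00, adjusted p = 0.0461), while Nphs1 (0.84) and Ptpro (1.90) were not called. Lhx1, a gene of the early nephron, read 1.32, 1.46 and 1.32 in the MSC samples and 38.2, 30.2 and 39.5 in the JG samples, and its difference of 1.58 ± 0.21 (adjusted p = 0.00562) depends on the added 16, since all MSC samples lay under it. Wt1, Foxd1, Epha7 and Lhx1 held their call with each sample left out in turn. Gdnf lost it without MSC sample 2 or 3 or JG sample 2 or 3 (up to 0.122), Tbx15 without MSC sample 1 or 3 or JG sample 2 or 3 and Tbx18 without JG sample 3 or any single MSC sample (up to 0.104 and 0.106). An added constant of 64 ended the calls of Gdnf and Tbx15, the removal of s and x probe sets that of Tbx15 and a trended robust prior that of Tbx18 (up to 0.0961, 0.111 and 0.0827 over their alternatives).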

How the data were processed

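Total RNA (100 ng) of 3 MSC and 3 JG samples was hybridised to Affymetrix arrays as biotinylated cRNA, per the labels' protocols. The deposited table gives a linear intensity for each probe set on each array. The authors' summarisation, background correction and scaling are not given in the sources used here. The number of arrays limits the precision. Of 45037 probe sets the platform annotation paired 34945 with 1 gene, 932 with several and 9160 with none. RefSeq's gene table held the identifiers behind 34741 of the 34945, and 0 symbols changed.

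The 18193 genes, each at its brightest probe set by mean intensity, were fitted as log2(intensity + 16) in limma 3.58.1 under R 4.3.3 (lmFit, eBayes), without covariates, filter or further normalization, and adjusted by Benjamini-Hochberg over all genes. The fit was tested on simulated data. Called Hox genes, and those not called but brighter than the median of all genes in a group, are given sample by sample, and up to 6 called genes per companion list and direction are named. Others were named after their values were seen. Some genes are not reported here. Protein sequences planned for called genes were not used here, and promoter windows and their motifs were chosen after values were seen. The members and lists were chosen with earlier results of these data known. The replicate numbers of the labels did not pair the samples. Figures used matplotlib 3.10.9.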

Additional observations from a re-analysis of the deposited data

How the results depend on the processing

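Only 3 samples per group and the wider spread among JG samples limit these calls. The counts of Hox genes called, 5 higher in MSC and 2 in JG, stayed within 1.5 times under quantile normalization, median centring, filters at the 25th percentile and the median, both other probe set rules, pseudocounts of 1 and 64 and a trended robust prior, and also when the brightest probe set was taken by mean log2 value, an alternative chosen after seeing the data. The genes behind these counts were not always the same. The filter at the median removed Hoxa11 and Hoxc13 before the fit. The genes called higher in JG were then Hoxd8 and Hoxb6 (limma adjusted p = 0.00528 and 0.0406). With an unmoderated t statistic 1 Hox gene was higher in MSC, and with array weights 6 were higher in JG. Leaving out 1 sample gave 2 to 6 Hox genes higher in MSC and 1 to 5 in JG. Over all companion lists 19 genes were called higher in MSC and 7 in JG. An unmoderated t statistic gave 6 in MSC, array weights 13 in JG, and leaving out 1 sample 5 to 24 in MSC and 4 to 12 in JG. With the replicate number as a block, 4 Hox genes were higher in MSC and 2 in JG, 12 companion genes were higher in MSC, and 1594 of all genes were called instead of 2803. The numbers do not pair the samples: deviations of same-numbered samples from their group means correlated at -0.20, -0.0079 and -0.011, and 0 of 6 samples correlated best with its own number. Called genes over all were 6429 with array weights, 1328 with an unmoderated t statistic and 1149 to 5301 with 1 sample left out. None of the called Hox or companion genes changed direction. Among the Hox genes that were not called, the difference changed sign for 9. Hoxa4 was -0.59 and Hoxb4 -0.01 with the mean of their probe sets, Hoxa9 was 0.15 with quantile normalization and 0.27 with array weights, and Hoxc5 was 0.33 with the brightest probe set by mean log2 value. With 1 sample left out Hoxa7 ran from -0.27 to 0.02, Hoxa9 from -0.21 to 0.16, Hoxb4 from -0.60 to 1.06, Hoxb5 from -0.23 to 0.86, Hoxb13 from -0.10 to 0.60, Hoxd9 from -1.90 to 0.02 and Hoxd13 from -0.14 to 0.07. The cause of these changes was not tested.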

Other observations

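Genes that border the Hox clusters were read as well. Of 13 measured, 1 was called higher in MSC and 2 in JG (23.1% against 15.4% of all genes), with a median of 0.08. At the Hoxa cluster, Skap2 read 1917, 2093 and 2451 in the MSC samples and 1191, 665 and 913 in the JG samples (-1.24 ± 0.29, limma adjusted p = 0.0363). Evx1, a homeobox gene next to Hoxa13, read 3.69, 1.93 and 4.48 in the MSC samples and 15.4, 33.6 and 21.4 in the JG samples (1.00 ± 0.26, adjusted p = 0.0477), and Hibadh, a valine breakdown enzyme gene, read 725, 759 and 931 in the MSC samples and 3606, 2079 and 3863 in the JG samples (1.92 ± 0.31, adjusted p = 0.0111). The call of Skap2 was lost without JG sample 3 or any single MSC sample, that of Evx1 without any 1 sample other than JG sample 1, and that of Hibadh without MSC sample 1 or 2 (adjusted p up to 0.146, 0.165 and 0.0587). Mtx2 and Evx2, the genes on either side of the Hoxd cluster, read 848, 669 and 763 in the MSC samples and 844, 486 and 744 in the JG samples and 40.7, 33.7 and 36.9 in the MSC samples and 44, 100.3 and 33.9 in the JG samples, with overlap in both (-0.16 ± 0.29 and 0.41 ± 0.36, adjusted p = 0.733 and 0.48).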
